A study of Mus musculus with 17 samples.

Results

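Transcripts of 8 chemokine and chemoattractant receptor genes, Ccr1, Ccr2, Cx3cr1, Cxcr2, Cxcr4, Ccrl2, C5ar1 and Ltb4r1, were followed in 2 sorted myeloid subsets of the mouse spleen during tumour growth. Each gene was read from its array feature with the highest mean signal among features that carry a single gene symbol, and all 8 were found among 19938 genes measured that way. Each of the 8 genes had 1 such feature.

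Chemoattractant receptors are G protein-coupled receptors that sense gradients of chemokines, complement fragments or lipid mediators and steer the migration of leukocytes. Inflammatory monocytes leave the bone marrow through Ccr2, whereas neutrophils are held there through Cxcr4 and released through Cxcr2. Ccrl2 is an atypical member that binds the chemoattractant chemerin without signalling through G proteins.

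The study asked which factors raise the suppressive capacity of myeloid-derived suppressor cells during tumour growth. Spleens of female BALB/c mice were pooled, CD11b+ cells were enriched by magnetic separation, and the subsets were then sorted by flow cytometry. Among CD11b+ cells, the monocytic subset (Mo) was gated as high for Ly-6C and low for Ly-6G. The polymorphonuclear subset (PMN) was gated the opposite way. Naive mice received no tumour, and the other mice received 100000 Her-2/CT26 cells, colon carcinoma cells that carry Her-2, under the skin 3 or 6 weeks before. There were 3 Mo arrays at each of the 3 stages, and 4 naive, 2 3-week and 2 6-week PMN arrays, 17 in all. The labels name neither batches nor individual mice and do not say whether replicates came from separate pools, so p-values reflect only variation among arrays of a group, and that variation could be technical.

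Values are log2 intensities from Affymetrix Mouse Gene 1.0 ST arrays. Mo arrays had median intensities of 95.2 to 114 and PMN arrays of 81.0 to 95.9, and the 2 subsets appeared to have been normalized apart. Levels of Mo and PMN cells are therefore set side by side without a test, together with the percentile that a gene held among the 19938 genes of its own array. Olfactory and vomeronasal receptor genes, 1194 in all, served as a measure of background. A receptor counted as above background on an array when it exceeded their 95th percentile, which lay at 6.35 to 7.29 (Mo) and 6.55 to 7.34 (PMN). The summed intensity of 5 monocyte genes was 10900 to 13700 in Mo arrays but 1420 to 2120 in PMN arrays. That of 8 neutrophil genes was 1670 to 12900 in Mo arrays but 16100 to 47500 in PMN arrays, so the labelled subsets carried the marker genes of their names. The transcripts behind the Ly-6C antibody were not analysed here. Changes with stage are differences of log2 means ± standard error from limma, and a gene passed at a Benjamini-Hochberg adjusted p below 0.05 over all 19938 genes. Levels are means ± SD over arrays.

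**Figure D1:**
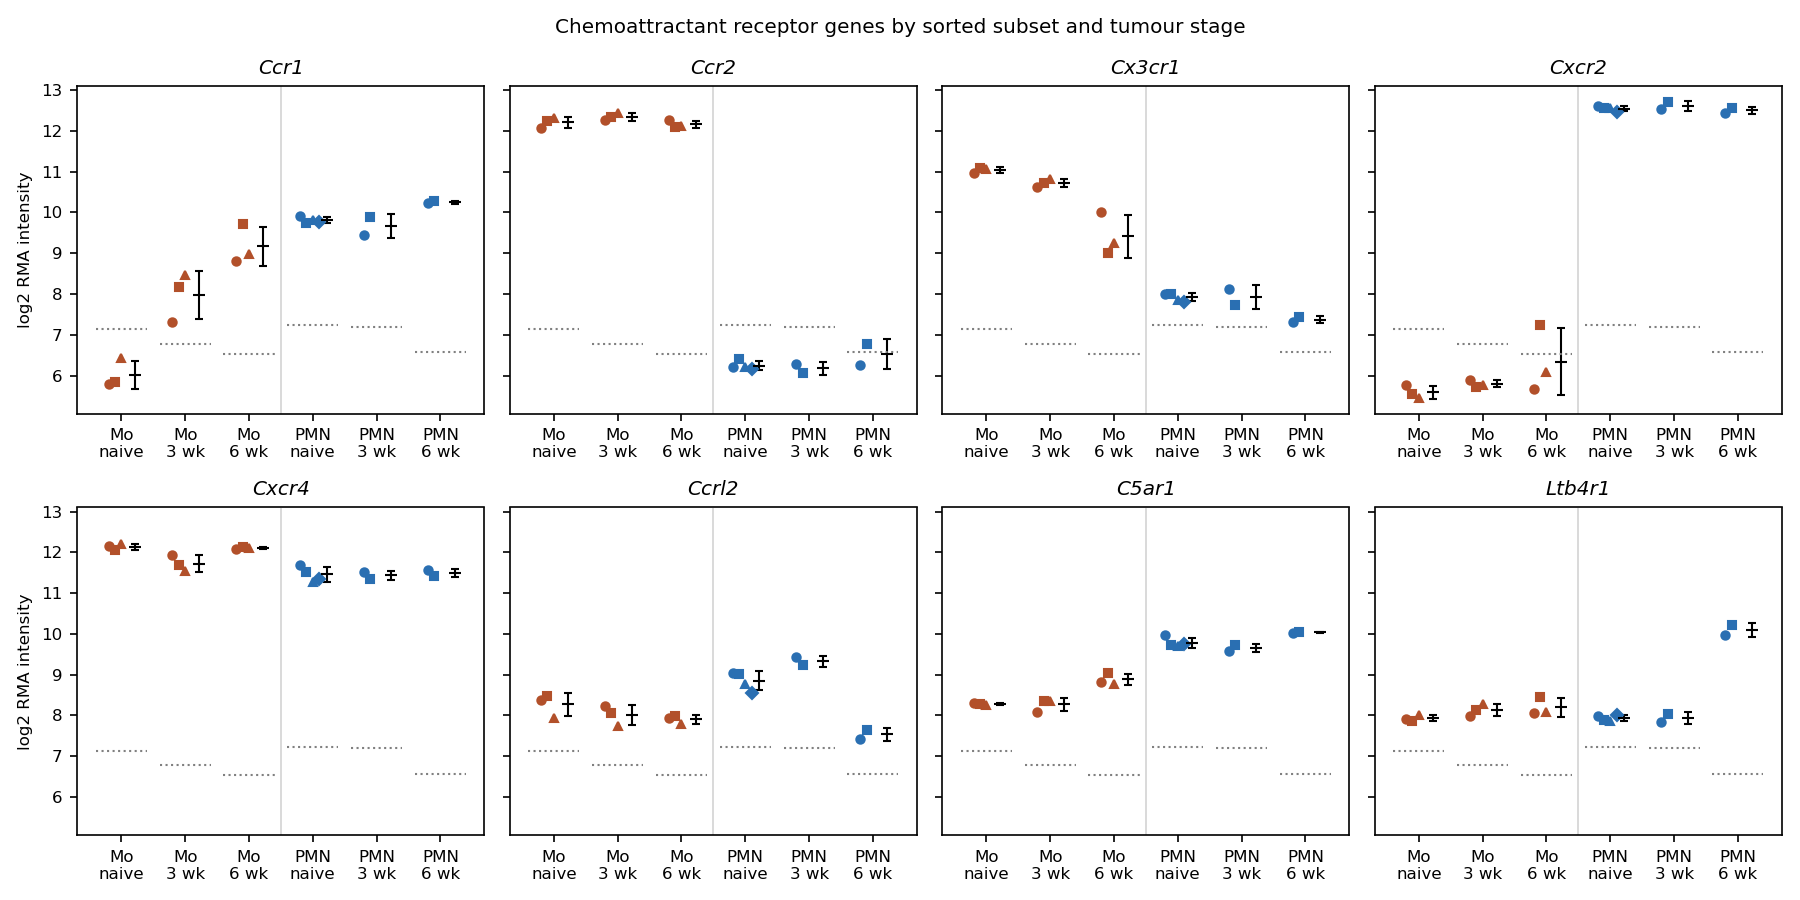
Log2 intensity (vertical axis) of the 8 receptor genes in each group of arrays (horizontal axis), with 1 symbol per array (circle, square, triangle and diamond for replicates 1 to 4), bars for mean ± SD and a dotted line for the mean 95th percentile of olfactory and vomeronasal genes in the group. Ccr1 climbs across the Mo stages from below the dotted line, Cx3cr1 drops at 6 weeks in Mo, and Ltb4r1 and Ccrl2 move in opposite directions at 6 weeks in PMN.

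Most of the movement lay in 4 receptor genes. In Mo cells Ccr1 rose at both tumour stages and Cx3cr1 fell at 6 weeks, while in PMN cells Ltb4r1 rose and Ccrl2 fell at 6 weeks. Ccr2 in Mo cells and Cxcr2 in PMN cells, the receptors by which these lineages are best known, passed in no comparison within those subsets. At 3 weeks in Mo, 2 of the 8 receptors passed, against 6.03% of all genes. At 6 weeks against naive, 4 of 8 passed in Mo (46.2% of all genes) and 4 of 8 in PMN (65.4%). From 3 to 6 weeks, 4 of 8 passed in Mo (7.51%) and 4 of 8 in PMN (58.7%). At 6 weeks so large a part of the array moved that these counts set the receptors apart little, and the sizes of change carry the description. No receptor passed at 3 weeks in PMN. There, limma called 0 genes of 19938 (0.0%), with 374 at an unadjusted p below 0.05, and the count stayed at 0 in every alternative except a floor on low values, which gave 9. In sorted cells from pooled spleens, fewer cells that carry a transcript and less transcript per cell cannot be told apart.

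**Figure D2:**
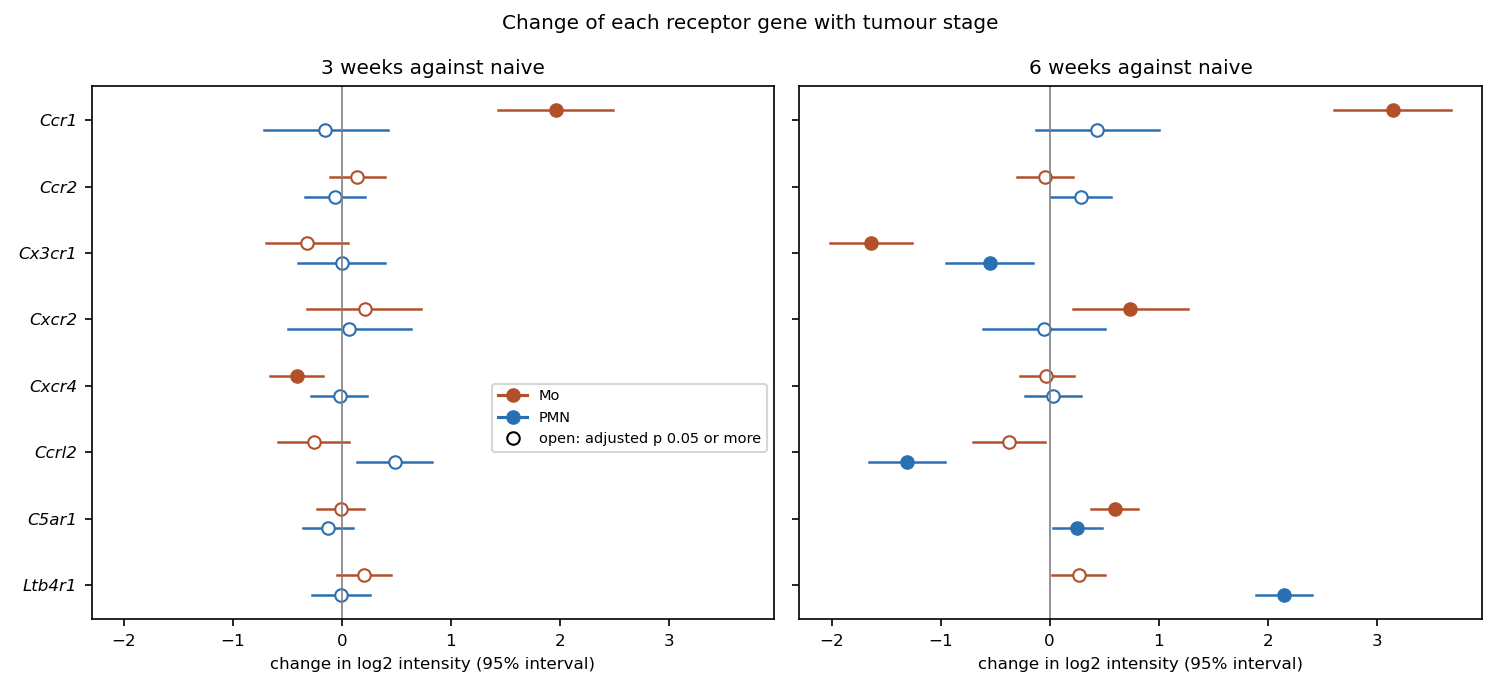
Change in log2 intensity (horizontal axis) of each receptor gene (vertical axis) at 3 weeks and at 6 weeks against naive, with 95% intervals from limma, for Mo in brown and PMN in blue; filled symbols passed at an adjusted p below 0.05. At 6 weeks Ccr1 lies at 3.15 and Cx3cr1 at -1.64 in Mo, and Ltb4r1 at 2.15 and Ccrl2 at -1.31 in PMN.

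Ccr1, a receptor for the inflammatory chemokines Ccl3, Ccl5, Ccl6 and Ccl9, rose at both tumour stages in Mo, by more than any other of the 8 receptor genes changed there at 6 weeks, also when read as a bound. Its gene lies at chr9:123962126-123968692 on the minus strand of GRCm38.p6 (feature 10598004, Entrez 12768). In naive Mo arrays it read 5.80, 5.85 and 6.42, in 3-week arrays 7.32, 8.16 and 8.46, and in 6-week arrays 8.82, 9.72 and 8.97. The 3 stages did not overlap. All 3 naive arrays lay below background and all 6 tumour arrays above it. Ccr1 rose by 1.96 ± 0.25 at 3 weeks (adjusted p = 0.00173) and by 3.15 ± 0.25 at 6 weeks (adjusted p = 2.55e-07, 95% interval 2.61 to 3.68), with a further rise of 1.19 ± 0.25 from 3 to 6 weeks (adjusted p = 0.00541). Because the naive level was not above background, the fold is a bound, taken against the 95th percentile of the background genes: at least 1.8-fold higher at 3 weeks and at least 4.1-fold higher at 6 weeks. These bounds use group means without their errors, and the 6-week mean includes replicate 2, which read highest at 9.72. Within the array, Ccr1 moved from between the 18 and 36.7 percentiles in naive Mo to between the 83.6 and 92.5 percentiles at 6 weeks.

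In PMN arrays Ccr1 was high at every stage. It read 9.92, 9.75, 9.82 and 9.77 in naive, 9.45 and 9.88 at 3 weeks, and 10.22 and 10.28 at 6 weeks. The 6-week change of 0.43 ± 0.27 did not pass (adjusted p = 0.16), although it passed when the PMN arrays were fitted without the Mo arrays (adjusted p = 0.00499), and it was -0.32 after quantile normalization over all 17 arrays (adjusted p = 0.29). The order of the group means was PMN 6 weeks, PMN naive, PMN 3 weeks, Mo 6 weeks, Mo 3 weeks and Mo naive. Ranges overlapped between PMN naive and PMN 3 weeks and between PMN 3 weeks and Mo 6 weeks. The difference between the subsets in their change at 6 weeks was itself tested: the fitted change in PMN minus that in Mo was -2.71 ± 0.37 (adjusted p = 9.87e-05). With the Mo rise at its bound of 2.04 the difference is -1.61, which leaves the size between subsets known only as at least that large. That value too is taken from group means without their errors. At 3 weeks this difference was -2.11 ± 0.37 and did not pass (adjusted p = 0.0734). With the Mo arrays fitted alone, the Mo rise at 3 weeks (adjusted p = 0.14) and that from 3 to 6 weeks (adjusted p = 0.0679) did not pass, while the rise at 6 weeks against naive did (adjusted p = 0.00036).

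Neutrophil marker genes also rose in the 6-week Mo arrays, and their values belong beside Ccr1, Cxcr2 and C5ar1, which PMN cells carry. Of the 8 neutrophil genes, 5 rose at 6 weeks in Mo (21.8% of all genes rose), Csf3r fell by 0.37, and Retnlg (0.60) and Stfa3 (1.21) did not pass. Their summed intensity was 1670 to 2110 in naive, 2070 to 2340 in 3-week and 4670, 12900 and 4090 in 6-week Mo arrays, where replicate 2 stood apart. Ly6g, which encodes the Ly-6G antigen that the Mo gate excludes, read 6.56, 8.95 and 6.43 in these 3 arrays, against 5.97 to 6.18 in naive Mo and 10.21 to 12.97 in PMN. Without replicate 2, 4 of the 8 rose and 0 fell, and the Ccr1 rise at 6 weeks was 2.87 (adjusted p = 2.54e-06). With 1 array left out, 4475 to 10686 of all genes passed in Mo at 6 weeks against naive (9204 with all arrays). The share by direction was not taken there. At 3 weeks 0 of the 8 neutrophil genes passed in Mo, where 6.03% of all genes did. Only 1 of the 8 was above background on every naive Mo array and 2 on every 3-week array, so that count shows little. Genes of early granulocyte precursors (Mpo, Elane, Ctsg and Prtn3) rose at 6 weeks in Mo, 4 of 4, with a median fitted change of 4.21. At 3 weeks 1 of the 4 rose. In naive Mo, Mpo and Ctsg were above background on 0 of 3 arrays and Elane and Prtn3 on 1 of 3. The size is therefore uncertain, and as a bound the 6-week rise was at least 3.84 for Mpo and 3.48 for Ctsg. The part of the precursor genes and that of the neutrophil genes in the receptor values was not tested.

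**Figure D3:**
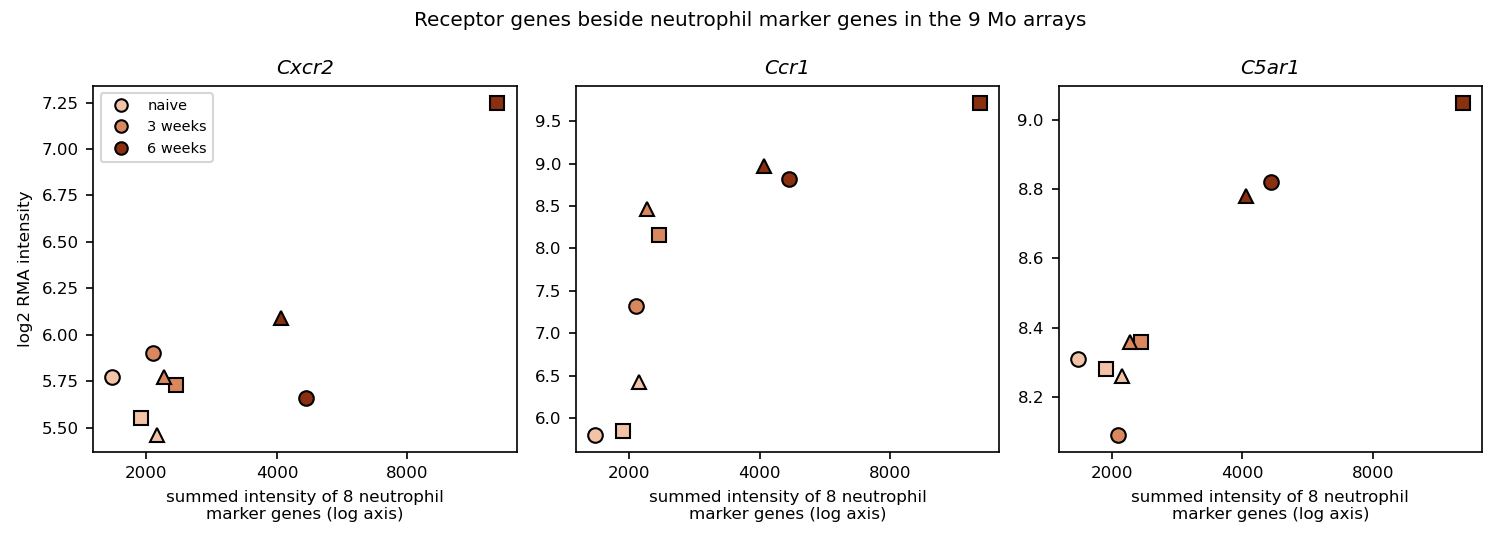
Log2 intensity of Cxcr2, Ccr1 and C5ar1 (vertical axes) against the summed intensity of 8 neutrophil marker genes (horizontal axis, log scale) in the 9 Mo arrays, coloured by stage, with circle, square and triangle for replicates 1 to 3. The 6-week replicate 2 lies far to the right, at 12900, and has the highest value of all 3 receptor genes. The 3-week arrays have Ccr1 above the naive arrays. Only 1 of the 8 marker genes was above background on every naive array and 2 on every 3-week array. The sums of those stages therefore cannot be compared as neutrophil signal.

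Ccr2, the receptor for the monocyte chemoattractants Ccl2 and Ccl7, was high on every Mo array. Ccr2 lies at chr9:124101918-124109140 on the plus strand (feature 10590631, Entrez 12772). It read 12.06, 12.24 and 12.32 in naive, 12.26, 12.33 and 12.45 at 3 weeks, and 12.26, 12.10 and 12.12 at 6 weeks, within the 99.5 to 99.7 percentile throughout. The change was 0.14 ± 0.12 at 3 weeks (95% interval -0.11 to 0.40, adjusted p = 0.386) and -0.04 ± 0.12 at 6 weeks (95% interval -0.30 to 0.21, adjusted p = 0.778). In PMN arrays Ccr2 read 6.20, 6.40, 6.20 and 6.17 in naive, 6.29 and 6.07 at 3 weeks, and 6.27 and 6.78 at 6 weeks. Only the 6-week replicate 2 of these 8 arrays was above background. The difference between subsets in the change from 3 to 6 weeks passed at 0.53 ± 0.19 (adjusted p = 0.0471), but it rests on PMN values near background, and without PMN 6-week replicate 2 it was 0.28 (adjusted p = 0.285). With 1 array left out it passed only where that array was Mo naive replicate 1, Mo 3-week replicate 1, Mo 6-week replicate 1, PMN naive replicate 2, PMN 3-week replicate 1 or PMN 6-week replicate 1. Neither Mo nor PMN changed past the threshold from 3 to 6 weeks when tested alone.

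Cx3cr1, the receptor for the membrane-bound chemokine fractalkine and a gene highest in patrolling, non-classical monocytes, fell late. Cx3cr1 lies at chr9:120048683-120068296 on the minus strand (feature 10597743, Entrez 13051). It read 10.97, 11.10 and 11.07 in naive Mo, 10.62, 10.71 and 10.83 at 3 weeks, and 10, 9.0 and 9.24 at 6 weeks. The 3 stages did not overlap, although the 3-week change of -0.32 ± 0.18 did not pass (adjusted p = 0.206). At 6 weeks Cx3cr1 fell by 1.64 ± 0.18 against naive (3.11-fold, adjusted p = 6.57e-06) and by 1.31 ± 0.18 against 3 weeks (adjusted p = 9.86e-05). Its percentile went from 98.6 to 98.8 in naive Mo arrays to between 84.9 and 95.1 at 6 weeks.

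PMN arrays held less Cx3cr1, above background on all 8. It read 8.01, 8.01, 7.86 and 7.81 in naive, 8.13 and 7.72 at 3 weeks, and 7.31 and 7.43 at 6 weeks. The 6-week arrays lay below all the others, and Cx3cr1 fell by 0.55 ± 0.19 (adjusted p = 0.0185). That call was lost after each array was centred on its median (-0.35, adjusted p = 0.153), with values floored at 6.5 (adjusted p = 0.0659), and without PMN 6-week replicate 1 (adjusted p = 0.117) or replicate 2 (adjusted p = 0.0583). B cell genes fell in the same PMN arrays (4 of 4, against 40.0% of all genes, with values given beside the other receptors), and their part was not tested. The fall of Cx3cr1 was larger in Mo: the PMN change minus the Mo change at 6 weeks was 1.09 ± 0.26 (adjusted p = 0.00809). The order of means was Mo naive, Mo 3 weeks, Mo 6 weeks, PMN 3 weeks, PMN naive and PMN 6 weeks, and only PMN 3 weeks and PMN naive overlapped.

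Other genes of non-classical monocytes were read beside it. Of 6 such genes, 4 fell at 6 weeks in Mo (24.4% of all genes fell): Ace (-1.87), Treml4 (-0.90), Nr4a1 (-0.76) and Cd300e (-0.67). Fcgr4 rose by 0.66, and Spn (0.02, adjusted p = 0.881) did not pass. Without Mo 6-week replicate 2, 2 of the 6 fell (share of all genes not taken). In PMN at 6 weeks 2 of the 6 rose and 1 fell (25.5% and 40.0% of all genes). Mean Nr4a1 in PMN was 10.22 in naive and 7.91 at 6 weeks. The summed intensity of the 6 genes was 6380 to 7840 in naive, 7530 to 7820 in 3-week and 6750, 3580 and 3610 in 6-week Mo arrays. The 6-week array with the highest sum, replicate 1, also had the highest Cx3cr1. The part of these cells in the Cx3cr1 values was not tested.

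Cxcr2, the receptor for Cxcl1, Cxcl2 and Cxcl5 that brings neutrophils into tissue, was high on every PMN array. It is encoded at chr1:74153994-74161246 on the plus strand (feature 10347291, Entrez 12765). It read 12.62, 12.55, 12.55 and 12.47 in naive, 12.53 and 12.70 at 3 weeks, and 12.44 and 12.56 at 6 weeks. All 8 arrays lay at the 99.9 percentile or above, and the groups overlapped. The 6-week change was -0.05 ± 0.26 (95% interval -0.61 to 0.51, adjusted p = 0.88). In Mo arrays Cxcr2 read 5.77, 5.55 and 5.46 in naive, 5.90, 5.73 and 5.77 at 3 weeks, and 5.66, 7.25 and 6.09 at 6 weeks. Only the 6-week replicate 2, the array with the most neutrophil marker signal, was above background. The Mo groups overlapped, and the rise of 0.74 ± 0.25 at 6 weeks passed (adjusted p = 0.0253) on the strength of that array. Without it the change was 0.28 and did not pass (adjusted p = 0.0981), and it did not pass with values floored at 6.5 (0.25, adjusted p = 0.274), without naive replicate 2 (adjusted p = 0.0693) or 3 (adjusted p = 0.0594), or with Mo fitted alone (adjusted p = 0.0902).

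Cxcr4, the Cxcl12 receptor that retains leukocytes in bone marrow, was high in both subsets. The gene lies at chr1:128588199-128592299 on the minus strand (feature 10357472, Entrez 12767). In Mo it read 12.16, 12.05 and 12.20 in naive, 11.94, 11.69 and 11.54 at 3 weeks, and 12.09, 12.14 and 12.11 at 6 weeks. The 3-week arrays lay below all the others, by 0.41 ± 0.12 against naive (adjusted p = 0.0458) and 0.39 ± 0.12 against 6 weeks (adjusted p = 0.0498). Both calls sat at the threshold. With 1 array left out, the first passed only where that array was Mo 3-week replicate 1, Mo 6-week replicate 1 or 3, or PMN naive replicate 1, and its adjusted p ran from 0.00371 to 0.296. The second passed only without Mo 3-week replicate 1 or PMN naive replicate 1 or 3, with an adjusted p from 0.0104 to 0.165. In PMN it read 11.70, 11.52, 11.28 and 11.35 in naive, 11.52 and 11.35 at 3 weeks, and 11.56 and 11.42 at 6 weeks. These groups overlapped, and the 6-week change was 0.03 ± 0.12 (adjusted p = 0.845) as deposited but -0.53 (adjusted p = 0.00261) after quantile normalization over all 17 arrays.

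Ccrl2 fell in PMN at 6 weeks. It lies at chr9:111054834-111057518 on the minus strand (feature 10597279, Entrez 54199). It read 9.05, 9.02, 8.78 and 8.56 in naive PMN, 9.43 and 9.24 at 3 weeks, and 7.43 and 7.65 at 6 weeks. The 3 stages did not overlap: the 3-week arrays were the highest and the 6-week arrays the lowest. The fall at 6 weeks was 1.31 ± 0.17 against naive (2.48-fold, adjusted p = 6.95e-06) and 1.80 ± 0.19 against 3 weeks (3.47-fold, adjusted p = 1.86e-06). The 3-week difference of 0.49 ± 0.17 had an unadjusted p of 0.00934 and did not pass (adjusted p = 1.0). In Mo, Ccrl2 read 8.39, 8.48 and 7.95 in naive, 8.23, 8.05 and 7.75 at 3 weeks, and 7.93, 7.99 and 7.79 at 6 weeks. The Mo groups overlapped, and the 6-week change of -0.37 ± 0.16 did not pass as deposited (adjusted p = 0.0584), but it did after quantile normalization over all 17 arrays (-0.61, adjusted p = 0.0114). The changes of the subsets differed by -0.94 ± 0.23 at 6 weeks against naive (adjusted p = 0.00844) and by -1.69 ± 0.25 from 3 to 6 weeks (adjusted p = 0.000121). Without PMN 6-week replicate 1, the former was -0.83 (adjusted p = 0.0617). The stress-responsive genes Egr1 (-2.05), Atf3 (-1.82) and Fos (-1.35), read as signs of cell handling, also fell in PMN at 6 weeks. These were 3 of a list of 5 (40.0% of all genes fell), while Jun (-0.40) and Hspa1a (-0.15) did not pass. The sum of these 5 genes was 3880 to 6380 in naive, 4420 to 4460 in 3-week and 1880 to 1920 in 6-week PMN arrays. In Mo 3 of the 5 also fell at 6 weeks (24.4% of all genes fell) and 1 at 3 weeks (6.03% of all genes passed). Their sum was 4020 to 6140 in naive, 2820 to 4740 in 3-week and 2320 to 3980 in 6-week Mo arrays. The part of cell handling in the Ccrl2 values was not tested.

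C5ar1, the receptor for the complement fragment C5a, rose in Mo at 6 weeks. C5ar1 is encoded at chr7:16246743-16259540 on the minus strand (feature 10560242, Entrez 12273). It read 8.31, 8.28 and 8.26 in naive Mo, 8.09, 8.36 and 8.36 at 3 weeks, and 8.82, 9.05 and 8.78 at 6 weeks. The 6-week arrays lay above the other 6. The rise was 0.60 ± 0.10 against naive (1.51-fold, adjusted p = 0.000383) and 0.61 ± 0.10 against 3 weeks (adjusted p = 0.000615). Without 6-week replicate 2 it was 0.52 against naive (adjusted p = 0.00355), but after quantile normalization over all 17 arrays it was 0.21 and did not pass (adjusted p = 0.15).

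In PMN, C5ar1 read 9.97, 9.72, 9.70 and 9.75 in naive, 9.59 and 9.73 at 3 weeks, and 10.03 and 10.05 at 6 weeks. As deposited, the 6-week arrays were the highest, by 0.25 ± 0.11 (adjusted p = 0.0474), but quantile normalization over all 17 arrays turned the change to -0.53 (adjusted p = 0.000686). The rise as deposited passed only without Mo 3-week replicate 1 or 3, any Mo 6-week array or PMN naive replicate 1 when 1 array was left out, and the rise from 3 weeks, 0.38 ± 0.12 (adjusted p = 0.0156), turned to -0.39 (adjusted p = 0.0183) under that normalization. Within its array, C5ar1 held the 97.6 to 98.4 percentile in naive PMN and the 96.4 to 96.5 percentile at 6 weeks. Its direction in PMN therefore depends on the scaling. The difference between subsets at 6 weeks was -0.35 ± 0.15 and did not pass (adjusted p = 0.128).

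Ltb4r1, the high-affinity receptor for leukotriene B4, a lipid that recruits neutrophils, showed the largest change of the 8 in PMN. The gene lies at chr14:55765962-55768492 on the plus strand (feature 10415392, Entrez 16995). It read 7.99, 7.90, 7.87 and 8.0 in naive PMN, 7.83 and 8.04 at 3 weeks, and 9.97 and 10.21 at 6 weeks. Naive and 3-week arrays overlapped, and both 6-week arrays stood well above them. The rise was 2.15 ± 0.12 against naive (4.43-fold, adjusted p = 5.16e-09) and 2.15 ± 0.14 against 3 weeks (4.45-fold, adjusted p = 3.62e-08). After quantile normalization over all 17 arrays these rises were 1.42 (adjusted p = 4.93e-08) and 1.44 (adjusted p = 3.04e-07). Its percentile went from 84.7 to 87.4 in naive PMN to 96.2 to 97.2 at 6 weeks. In Mo, Ltb4r1 read 7.91, 7.87 and 8.02 in naive, 7.98, 8.14 and 8.29 at 3 weeks, and 8.06, 8.46 and 8.08 at 6 weeks, and the 6-week change of 0.27 ± 0.12 did not pass (adjusted p = 0.0685; -0.02 after that normalization). The PMN change exceeded the Mo change by 1.88 ± 0.17 at 6 weeks (adjusted p = 2.17e-06) and by 2.09 ± 0.18 from 3 to 6 weeks (adjusted p = 1.59e-06). Neutrophil genes were also higher in these 6-week PMN arrays: 6 of 8 rose (25.5% of all genes did) and Csf3r fell by 0.56 (40.0% of all genes fell), and their sum was 17900 to 19200 in naive, 16100 to 16800 in 3-week and 44900 to 47500 in 6-week PMN arrays. Their part in the Ltb4r1 values was not tested. The 5 other groups had Ltb4r1 means between 7.93 and 8.20, and neighbours in that order overlapped.

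Across the subsets, then, 4 of the 8 receptors changed differently at 6 weeks against naive (17.5% of all genes did): Ccr1, Cx3cr1, Ccrl2 and Ltb4r1. From 3 to 6 weeks 3 of 8 did (29.2%), namely Ccr2, Ccrl2 and Ltb4r1, and at 3 weeks against naive 0 of 8 did (0.00502%). At 3 weeks limma called 1 gene in all, with 3312 at an unadjusted p below 0.05. These comparisons share arrays with those within each subset.

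The promoters of the 4 genes that changed differently between the subsets are shown, 250 bases before to 50 after the start site, 5′ to 3′ on the strand of the gene, from RefSeq on GRCm38.p6. Capitals mark matches to 4 letter patterns searched on both strands: TTGCNNAA (as in C/EBP sites), GAGGAAG (as in PU.1 sites), ACGTG (as in hypoxia response elements) and GAAA followed by any 2 bases and GAAA (as in interferon-stimulated response elements). Positions count from 1 at the start site, with -1 the base before it, and give the leftmost base of a match. The windows are chr14:55765712-55766011 (plus strand) for Ltb4r1, chr9:111057469-111057768 (minus strand) for Ccrl2, chr9:123968643-123968942 (minus strand) for Ccr1 and chr9:120068247-120068546 (minus strand) for Cx3cr1.
Ltb4r1: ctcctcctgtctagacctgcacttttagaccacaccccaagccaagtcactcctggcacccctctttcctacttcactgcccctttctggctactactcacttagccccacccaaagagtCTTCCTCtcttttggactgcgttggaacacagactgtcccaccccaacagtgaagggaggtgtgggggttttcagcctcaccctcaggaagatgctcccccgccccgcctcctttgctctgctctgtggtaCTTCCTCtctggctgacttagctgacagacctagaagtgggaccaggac
Ccrl2: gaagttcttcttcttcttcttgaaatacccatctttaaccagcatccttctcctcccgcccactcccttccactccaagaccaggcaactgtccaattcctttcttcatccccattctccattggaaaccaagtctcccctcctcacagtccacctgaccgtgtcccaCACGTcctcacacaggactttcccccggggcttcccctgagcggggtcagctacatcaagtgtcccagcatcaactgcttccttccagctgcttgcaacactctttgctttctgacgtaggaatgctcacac
Ccr1: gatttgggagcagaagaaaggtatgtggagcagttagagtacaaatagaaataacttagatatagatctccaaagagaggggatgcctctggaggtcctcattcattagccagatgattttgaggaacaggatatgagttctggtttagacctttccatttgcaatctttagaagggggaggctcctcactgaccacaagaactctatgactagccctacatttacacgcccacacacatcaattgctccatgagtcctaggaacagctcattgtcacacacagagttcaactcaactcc
Cx3cr1: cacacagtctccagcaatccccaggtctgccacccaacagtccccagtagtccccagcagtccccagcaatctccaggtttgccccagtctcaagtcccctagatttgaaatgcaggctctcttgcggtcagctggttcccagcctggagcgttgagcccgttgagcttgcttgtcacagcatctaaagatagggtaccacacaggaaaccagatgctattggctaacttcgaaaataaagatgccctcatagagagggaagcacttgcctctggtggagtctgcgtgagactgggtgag
GAGGAAG was found in the Ltb4r1 window, at positions -130 and 2, both times on the opposite strand, so that it reads CTTCCTC. Of 32851 promoter windows of the same length, 13.6% held that pattern. ACGTG was found in all 3 windows listed for Ccrl2, which overlap one another, and in the window shown it lies at -82 on the opposite strand, reading CACGT. It occurs in 19.6% of all windows. In the 10 windows of the 8 receptors, TTGCNNAA (10.8% of all windows) and the interferon-stimulated response element pattern (3.44%) were not found, no match overlapped a match to another pattern, and Ccr1, Ccr2, Cx3cr1, Cxcr2, Cxcr4 and C5ar1 held no match. These are descriptions of letters and not of bound sites.

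The ligands of the 8 receptors, and the enzymes that make leukotriene B4, form a list of 22 genes, all measured. Its counts include genes not above background, such as Ccl4, at 6.26 to 6.33 in naive Mo and 6.72 to 6.96 in naive PMN. No change is read from such genes. At 6 weeks in PMN 4 rose and 10 fell (25.5% and 40.0% of all genes). The median change was -0.30, against -0.18 for all genes and -0.36 for the olfactory and vomeronasal background genes. With medians centred, 4 rose and 7 fell in PMN (5916 and 3270 of all 19938 genes). After quantile normalization over all arrays, 4 rose and 10 fell in PMN (4287 and 5330 of all genes). Lta4h, the hydrolase that completes leukotriene B4, rose most. It read 7.17, 7.41, 7.0 and 7.04 in naive PMN, 7.14 and 6.78 at 3 weeks, and 10.41 and 10.15 at 6 weeks, a fitted rise of 3.12 ± 0.23 against naive (adjusted p = 3.52e-08). Only 1 of the 4 naive and 0 of the 2 3-week arrays were above background, so the size against naive is uncertain, and against 3 weeks the rise was at least 8.47-fold. Alox5, the lipoxygenase that starts the pathway, read 9.85 to 10.18 in naive, 10.01 and 10.05 at 3 weeks, and 11.40 and 11.42 at 6 weeks, a rise of 1.37 ± 0.23 (adjusted p = 0.000101) that was 0.71 after quantile normalization over all arrays (adjusted p = 0.0033). Alox5ap, which presents arachidonate to Alox5, read 9.79 to 10.04, 9.88 and 10, and 11.25 and 11.33. Its change from 3 to 6 weeks in PMN exceeded that in Mo by 1.35 ± 0.16 (adjusted p = 1.95e-05). Within PMN, Lta4h, Alox5 and Alox5ap thus read highest on the same 2 arrays as the receptor gene Ltb4r1. Alox5ap read 11.74 to 12.21 on the Mo arrays, set beside the PMN values without a test.

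Among the chemokines, Cxcl2, a Cxcr2 ligand, fell most. It read 9.47 to 10.09 in naive PMN, 10.37 and 10.26 at 3 weeks, and 6.93 and 7.40 at 6 weeks, and fell by 2.58 ± 0.20 against naive (adjusted p = 5.65e-08). Ccl3, a Ccr1 ligand, fell by 2.05 ± 0.39 (adjusted p = 0.000403). In Mo at 6 weeks 3 ligand genes rose and 7 fell (21.8% and 24.4% of all genes). The list median was -0.17, against -0.09 for all genes and -0.33 for the background genes. With medians centred, 3 rose and 2 fell in Mo, against 5053 and 2217 of all 19938 genes. After quantile normalization over all arrays, 1 rose and 2 fell, against 2629 and 2618. Without Mo 6-week replicate 2, 2 rose and 2 fell (shares of all genes not taken). Ccl5, another Ccr1 ligand, fell by 2.04 ± 0.21 (adjusted p = 3.12e-06) and Lta4h rose by 1.82 ± 0.22 (adjusted p = 1.65e-05), from naive arrays of which 1 of 3 was above background. At 3 weeks in Mo, where 6.03% of all genes passed, Lta4h was the only ligand-list gene to pass, at 0.81 ± 0.22 (adjusted p = 0.0428). That call was lost after quantile normalization over all arrays (0.66, adjusted p = 0.104). Mif, which binds Cxcr2 and Cxcr4 as well as Cd74, rose by 0.61 ± 0.15 in Mo at 6 weeks (adjusted p = 0.00504) but by 0.24 after quantile normalization over all arrays, where it did not pass (adjusted p = 0.29).

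**Figure D4:**
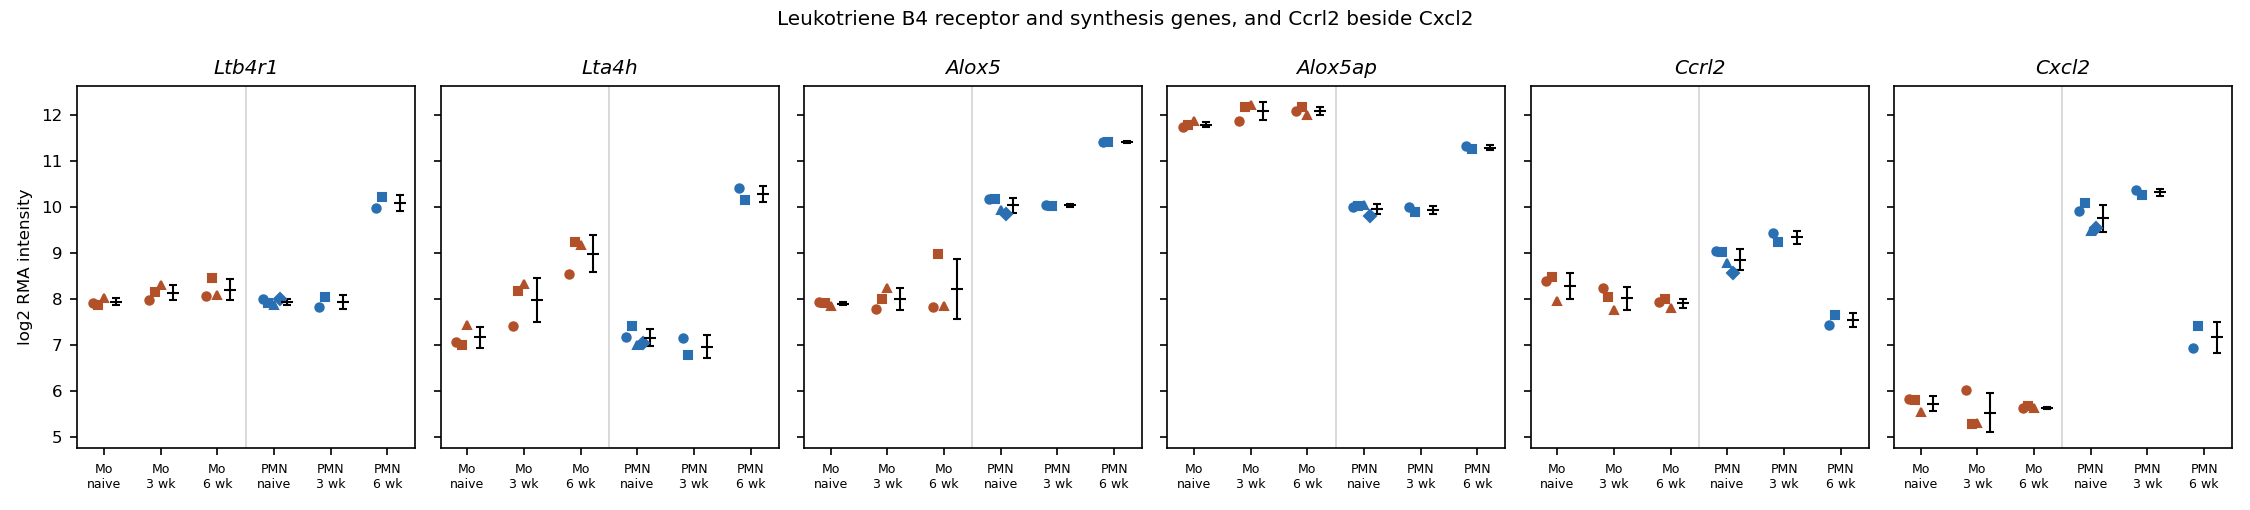
Log2 intensity (vertical axis) of the leukotriene B4 receptor gene Ltb4r1, of Lta4h, Alox5 and Alox5ap, and of Ccrl2 and the chemokine gene Cxcl2 in the 6 groups (horizontal axis), with 1 symbol per array and mean ± SD. In PMN at 6 weeks the first 4 genes stand above the naive and 3-week arrays and the last 2 below them.

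Of 33 other chemoattractant receptor genes, 28 were measured. Most calls were falls with stage, and they include genes not above background. Cxcr6, for example, was above it on 0 of 3 arrays at each Mo stage, and on 0 of 4 naive and 0 of 2 6-week PMN arrays. No change is read from such genes. At 6 weeks 1 rose and 13 fell in Mo (21.8% and 24.4% of all genes), with a list median of -0.36 against -0.09 for all genes and -0.33 for the olfactory and vomeronasal background genes. In PMN 1 rose and 19 fell (25.5% and 40.0%), with medians of -0.44, -0.18 and -0.36. These list medians lay closer to those of the background genes than to those of all genes. With medians centred, 1 rose and 9 fell in Mo, where 5053 of all 19938 genes rose and 2217 fell. In PMN 2 rose and 8 fell, against 5916 and 3270 of all genes. After quantile normalization over all arrays, 0 rose and 8 fell in Mo (2629 and 2618 of all genes). Under that normalization 1 rose and 13 fell in PMN (4287 and 5330 of all genes). Without Mo 6-week replicate 2, 1 rose and 8 fell in Mo (shares of all genes not taken). S1pr1, the sphingosine-1-phosphate receptor that lets lymphocytes leave lymphoid organs, fell in both subsets, by 1.07 ± 0.14 in Mo (adjusted p = 3.2e-05) and by 1.15 ± 0.15 in PMN (adjusted p = 7.58e-06). At 3 weeks in Mo, where 6.03% of all genes passed, S1pr1 was the only gene of the list to pass (-0.52 ± 0.14, adjusted p = 0.0401). That call was lost with medians centred (adjusted p = 0.0622) and without Mo 6-week replicate 2 (adjusted p = 0.0507). Ccr7, the receptor that guides cells to lymph nodes, fell by 0.84 ± 0.14 in Mo (adjusted p = 0.000328) and by 1.00 ± 0.15 in PMN (adjusted p = 3.47e-05). In PMN, S1pr4 rose by 1.2 ± 0.09 (adjusted p = 5.25e-08; 0.40 after quantile normalization over all arrays, adjusted p = 0.00158) and Gpr183, an oxysterol receptor that positions B cells, had a fitted change of -0.82 ± 0.14 (adjusted p = 0.000132), although it was above background on only 1 of 4 naive and 0 of 2 6-week PMN arrays. B cell genes moved with these: 4 of 4 measured fell in PMN at 6 weeks, where 40.0% of all genes did, and their sum was 1960 to 2160 in naive, 1660 to 2280 in 3-week and 629 to 643 in 6-week PMN arrays. In Mo the same sum was 608 to 1230, 504 to 1050 and 415 to 556. The part of B cells in the receptor values was not tested.

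Genes that carry or end the receptor signal were measured for 23 of 24. In PMN at 6 weeks 16 rose and 1 fell (25.5% and 40.0% of all genes), with a median change of 0.96 against -0.18 for all genes. After quantile normalization over all arrays 12 rose and 6 fell (4287 and 5330 of all 19938 genes), with a median of 0.27 against -0.05. Rgs18, which shortens G protein signals in platelets and myeloid cells, rose by 2.39 ± 0.20 (adjusted p = 1.08e-07), and the G protein subunit gene Gnb1 by 1.51 ± 0.13 (adjusted p = 1.42e-07; 0.87 after that normalization). Plcb2, a phospholipase that G protein subunits switch on, rose by 1.48 ± 0.14 (adjusted p = 3.82e-07; 0.67 after that normalization), and Grk6, a kinase that desensitises receptors, by 1.41 ± 0.14 (adjusted p = 5.34e-07; 0.69 after that normalization). In Mo at 6 weeks 10 rose and 3 fell (21.8% and 24.4%). After quantile normalization over all arrays 2 rose and 9 fell in Mo (2629 and 2618 of all genes). The balance of the list in Mo therefore depended on the scaling. Without Mo 6-week replicate 2, 6 rose and 1 fell (shares of all genes not taken). Rgs18 rose there by 1.23 ± 0.19 (adjusted p = 0.000156) and Grk3 fell by 1.22 ± 0.16 (adjusted p = 2.92e-05). The subsets differed in their change at 6 weeks in 17 of the 23 genes, all of them higher in PMN (11.0% of all genes were higher and 6.47% lower). After quantile normalization over all arrays 9 were higher and 1 was lower in PMN (2295 and 1322 of all genes).

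Genes within 100 kb of the receptors were read beside them. Next to Ccr1, in a cluster of receptor genes, Ccr1l1 (7738 bases away) and Ccr3 (49133 bases away) were above background on 0 of 3 Mo arrays at each stage, so no change is read from them. Beside Ltb4r1, Adcy4, 564 bases away, had a fitted change of -0.49 in PMN at 6 weeks (adjusted p = 0.00139). It lay near background, with means of 7.29 in naive and 6.79 at 6 weeks and 3 of 4 naive arrays above it. The background genes had a median change of -0.36 there. Cideb had a fitted change of -0.80 (adjusted p = 0.000609) with 2 of 4 naive and 0 of 2 6-week arrays above background. Dhrs1, 20278 bases away, rose by 1.69 (adjusted p = 1.19e-08). The paralogue Ltb4r2, 1896 bases away, was not analysed here. Beside Ccrl2, the granule gene Ltf rose by 1.33 (adjusted p = 0.01) and Lrrfip2 by 1.34 (adjusted p = 3.25e-07) in PMN at 6 weeks, while Ccrl2 fell. Cxcr1, 30539 bases from Cxcr2, fell by 0.71 in Mo at 6 weeks (adjusted p = 0.0104), a call lost without Mo 6-week replicate 2 (-0.59, adjusted p = 0.0549), and 2 of 3 arrays at each Mo stage were above background. C5ar2, 2589 bases from C5ar1 and the gene of another C5a receptor, was above background on 0 of 3 naive and 2 of 3 6-week Mo arrays.

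The genes whose pattern over the 17 arrays was most like that of each receptor were found by Pearson's r after each subset's mean was subtracted, which leaves variation among stages and replicates. The arrays within a stage share their group, so r describes the arrays and is given without a test. For Ccr1 these were F10 (r = 0.97, Spearman's rho = 0.79), which encodes coagulation factor X, Rnh1 (0.95, 0.94) and Cd300lf (0.95, 0.93). F10 went from 9.41 to 10.53 and 11.24 across the Mo stages and read 7.06, 7.08 and 7.0 across the PMN stages. For Cx3cr1 they were Cd74 (r = 0.98, rho = 0.94), Slc46a3 (0.98, 0.95) and H2-Aa (0.97, 0.96), and Cd74 and H2-Aa serve class II antigen presentation. The group means of Cd74 were 11.04, 10.53 and 7.70 in Mo and 10.38, 10.42 and 8.99 in PMN. For Ltb4r1 they were Padi4 (r = 0.99, rho = 0.90), whose enzyme citrullinates histones in neutrophils, Mcu (0.98, 0.94) and Babam2 (0.98, 0.94). Padi4 went from 7.62 and 7.49 to 9.79 across the PMN stages and read 6.17, 6.21 and 6.31 in Mo, where it was above background on 0 of 3 naive arrays. For Ccrl2 the nearest was Cxcl2 (r = 0.95, rho = 0.85), followed by Dnaaf1 (0.92, 0.84) and Nkx2-5 (0.92, 0.84). Cxcl2 was above background on 0 of 3 Mo arrays at each stage, so its Mo values say nothing of a likeness to Ccrl2. Its r and rho nevertheless take in all 17 arrays, and none was taken over PMN alone. Dnaaf1 was above background on 0 of 3 naive Mo and 1 of 4 naive PMN arrays. For C5ar1 they were Cd33 (r = 0.94, rho = 0.88), Fkbp5 (0.92, 0.85) and the decoy interleukin-1 receptor gene Il1r2 (0.91, 0.87), and Il1r2 is also in the neutrophil list. The nearest patterns to Ccr2 (Ccm2, r = 0.88), Cxcr2 (Ino80b, r = 0.87) and Cxcr4 (Fcsk, r = 0.79) were weaker.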

How the data were processed

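RNA of the 17 samples was hybridised to Affymetrix Mouse Gene 1.0 ST arrays, 1 colour and 1 array per sample. Per the submitters' processing notes the authors used RMA, with no version given; the deposited values are linear intensities, from 9.76 to 32095, and log2 was taken here. The number of arrays, and not a read depth, limits the precision. Of 35557 features, 21789 carry 1 gene symbol, 1621 several and 12147 none in the platform annotation; features with several symbols were not used. Where a gene had more than 1 feature (999 genes), the brightest on average stood for it. Arrays of one subset shared a median of 942.5 (Mo) or 251 (PMN) distinct values per pair, but arrays of different subsets shared 146, which is why the subsets appeared to be normalized apart and their levels were not tested against each other.

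limma 3.58.1 in R 4.3.3 was fitted to the 6 group means over all 17 arrays and 19938 genes, with no filter on low values, empirical Bayes moderation and Benjamini-Hochberg adjustment at 0.05. The comparisons were the stages within each subset and the differences between subsets in those changes. The fit was tested on simulated data. Genes named from the wider lists were the 4 passing members with the largest change in each comparison, and for likeness the 3 genes with the highest r among those with a mean of at least 7 in both subsets or in the one where the receptor is higher, skipping predicted, olfactory, vomeronasal, small RNA and antigen receptor genes. Genes named beside these (Alox5ap values, Cxcl2, neighbours, markers) were chosen with their values known. The receptors and gene lists were chosen with earlier results of these data known. Alternatives were median centring, quantile normalization over all arrays, a floor at 6.5, leaving out genes with no group mean of at least 7, fitting a subset alone, array weights, a trended prior, the replicate block, the mean of a gene's features, and leaving out each array. Gene positions and promoters are from RefSeq on GRCm38.p6.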

Additional observations from a re-analysis of the deposited data

Results flagged for a closer look

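The change at 6 weeks from naive differed between the subsets for 4 of the 8 receptors by the test of the difference in limma. The PMN change minus the Mo change was -2.71 for Ccr1, where Mo rose from below background (-1.61 with the Mo rise at its bound), and 1.09 for Cx3cr1, where the Mo fall was the larger. It was -0.94 for Ccrl2, where PMN fell, and 1.88 for Ltb4r1, where PMN rose.

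From 3 to 6 weeks the difference was 0.53 for Ccr2, -1.69 for Ccrl2 and 2.09 for Ltb4r1. The value for Ccr2 rests on PMN arrays near background.

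In naive PMN, 1 of the 4 arrays stood apart for Ccr2, at 6.40 against 6.17 to 6.20 in the others. It was not above background. Each receptor's naive PMN group was examined in this way, 8 groups of 4 arrays, and chance flags about 1 in 20 such groups.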

How the results depend on the processing

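The number of receptors that passed in a comparison was, with 1 array left out, 1 to 2 (2 with all arrays) in Mo at 3 weeks, 3 to 6 (4) in Mo at 6 weeks, 3 to 4 (4) in Mo from 3 to 6 weeks and 0 to 0 (0) in PMN at 3 weeks. It was 2 to 4 (4) in PMN at 6 weeks and 2 to 6 (4) from 3 to 6 weeks, with the lowest count of both without PMN 6-week replicate 2. For the differences between subsets it was 0 to 3 (0) at 3 weeks, 4 to 5 (4) at 6 weeks and 2 to 5 (3) from 3 to 6 weeks; 3 passed at 3 weeks without Mo 3-week replicate 1. Array weights gave 5 in Mo at 3 weeks, 7 in Mo from 3 to 6 weeks, and 3, 7 and 7 for the differences. Array weights gave Mo 3-week replicate 2 a weight of 50.8 and did not converge. Median centring and the floor each gave 1 in Mo at 3 weeks, and the floor gave 2 in PMN at 6 weeks. Fitting a subset alone gave 0 in Mo at 3 weeks and 2 from 3 to 6 weeks. Quantile normalization over all arrays gave 1, 7 and 7 for the differences, and leaving out dim genes gave 1 at 3 weeks.

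Under quantile normalization over all arrays 4 values turned in PMN: Cxcr4 at -0.53 and C5ar1 at -0.53 against naive, and Cxcr4 at -0.51 and C5ar1 at -0.39 against 3 weeks. The cause was not tested. The 6-week changes of Ccr1 and Cx3cr1 in Mo and of Ltb4r1 and Ccrl2 in PMN, against naive, passed in the same direction in every alternative and without each array, with ranges over the alternatives of 2.67 to 3.63, -1.96 to -1.52, 1.42 to 2.35 and -1.72 to -1.11.

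Over all genes, 1202 passed in Mo at 3 weeks, but 16 without Mo 3-week replicate 2 or 3, 18 and 17 without Mo naive replicate 1 and 2, and 8911 without Mo 3-week replicate 1; 2 passed with Mo fitted alone. The share of calls that were higher at 6 weeks went with centring from 47.2% to 69.5% (Mo) and from 38.9% to 64.4% (PMN). Centring added 0.12 in Mo and 0.20 in PMN to every 6-week change. Counts of all genes by direction were taken as deposited, with medians centred and after quantile normalization over all arrays. They were not taken with an array left out, so list counts without Mo 6-week replicate 2 stand without such a share. With 1 array left out, 4475 to 10686 genes passed in either direction in Mo at 6 weeks against naive, and 9204 with all arrays.

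Of 36 pairs of samples that share a replicate number, 9 deviated together with a correlation above 0.1 (median -0.024). Within Mo 7 of 9 pairs did, with a median of 0.475 and a range from -0.089 to 0.628, while 2 of 21 between the subsets and 0 of 6 within PMN did. Replicate 2 of naive Mo was below 0.1 with both other stages, so the numbers were not taken to pair the Mo stages, although from 3 to 6 weeks all 3 Mo pairs were above it. With the replicate block 2, 5, 4, 0, 3 and 4 receptors passed in the comparisons within subsets, in the order given above, and 0, 4 and 2 for the differences. The fifth receptor in Mo at 6 weeks was Ccrl2 (-0.37, adjusted p = 0.00891 with the block in limma). From 3 to 6 weeks in Mo the block changed the call of no receptor.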

Other observations

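Rgs18, which shortens G protein signals, passed in Mo at 3 weeks, at 0.92 ± 0.19 by limma (adjusted p = 0.0204). It was 1 of the 23 genes of the coupling and desensitisation list, where 6.03% of all genes passed, so the count does not set the list apart. With medians centred 5 of the 23 genes of that list rose there, against 1733 of all 19938 genes.

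T and NK cell genes read lower in 6-week Mo arrays, where 5 of 6 had a fitted fall that passed (24.4% of all genes did). Cd3d and Ncr1 were above background on 0 of 3 naive and 0 of 3 6-week Mo arrays, so no change is read from them. Cd3g was above it on 2 of 3 naive and 0 of 3 6-week arrays. Cd3e, Cd8a and Nkg7 were above it on every array of both stages. The summed intensity of all 6 genes was 911 to 1340 in naive and 637 to 678 in 6-week Mo arrays. Ccl5, a ligand of Ccr1 that lymphocytes make in quantity, fell in the same arrays, and the part of lymphocytes in that value was not tested.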
